A study of Saccharomyces cerevisiae with 14 samples.

Results

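The late step of the M2 fermentation was taken as the change between 20% and 85% of the sugars fermented. M2 is an industrial wine strain of Saccharomyces cerevisiae, a MATa/α diploid, and the step was read from 5 of the 14 arrays of the series, 3 at 85% and 2 at 20%. All probe sets paired with a single S. cerevisiae gene were taken, which gave 5511 probe sets for 5462 genes out of 10928 probe sets on the Affymetrix Yeast Genome 2.0 array. The study set M2 against M2 nsf1∆, in which both copies of NSF1 were replaced by the kanMX4 marker, in Riesling must at 18 °C without shaking. Each strain had arrays at 24 h after inoculation, at 20% and at 85%, in numbers of 2, 2 and 3. For comparison, M2 at the first stage and nsf1∆ at both later stages are also given. In the labels the percentages refer to glucose, and in the paper to sugars.

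A wine fermentation starts in must that is rich in sugar and ends in a medium that is rich in ethanol and poor in nitrogen, vitamins and sterols. Yeast makes sterols and unsaturated fatty acids only with oxygen, and in closed flasks it lives on the lipids it already has. As growth slows, the Ras/PKA and TOR pathways are known to release stress genes and to hold back ribosome synthesis. Ethanol and unfolded proteins call on Hsf1p and the chaperones under its control, and the stress response element is read by C2H2 zinc finger factors, a family that includes Nsf1p.

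A value below is an RMA log2 intensity of a probe set, so that a difference of 1 is a 2-fold change in signal, and levels of different genes are not comparable with each other. A gene was called where limma gave an adjusted p under 0.05 over the 5511 probe sets, and "rose" and "fell" are used for called genes only. The median S. cerevisiae probe set lay between 8.87 and 8.96 on all 14 arrays, and the S. pombe probe sets of the same array design, which serve as background, had a median of 3.06 and a 95th percentile of 3.53. The lowest correlation of an array with another of its group was between 0.985 and 0.996. The median SD of a probe set was 0.14 at 85% and 0.13 at 20%. Each group has only 2 or 3 arrays, which bounds the precision of every value. The methods speak of duplicate fermentations and the labels of 3 biological replicates at 85%, so whether each array had a flask of its own was not established, and p-values measure the spread between these samples.

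The late step moved most of the transcriptome. The largest rises were those of the a-factor gene MFA2, the recombination gene RDH54 and the riboflavin transporter gene MCH5, and the largest falls those of the cell wall gene PAU24, the phosphate transporter gene PHO84 and the phosphatase gene PHO3. Of 5511 probe sets 1827 were higher at 85% (33.2%) and 1761 were lower (32.0%), together 65.1% in either direction. A change of at least 2-fold was found for 765 probe sets upwards and 689 downwards, and one of at least 4-fold for 172 and 109. The median change over all probe sets was 0.01 on the log2 scale, so directions are relative to an even balance set in part by the normalization. In 84 probe sets (1.52%) both group means lay at or under the background level of 3.53. The arrays at 85% did not overlap those at 20% in 4175 probe sets (75.8%).

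The largest rise belonged to MFA2, which encodes the mating pheromone a-factor. It gave 9.67, 9.50 and 9.89 at 85%, against 4.13 and 4.15 at 20%, a change of 5.55 (SE 0.31, adjusted p = 1.63e-08) or 46.9-fold. The 20% arrays lay just above background and all 3 arrays at 85% far above it. MFA1, the second a-factor gene, gave 11.59, 11.56 and 11.58 at 85%, against 7.90 and 7.27 at 20% (change 3.99, SE 0.18). RDH54, a DNA translocase of recombination, gave 11.77, 11.43 and 12.07 at 85%, against 6.19 and 6.55 at 20% (change 5.39, SE 0.17). In both genes the groups lay far apart compared with the spread within them.

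MCH5, the plasma membrane transporter for riboflavin, gave 12.12, 11.65 and 12.30 at 85%, against 6.62 and 7.27 at 20%. SRT1, a cis-prenyltransferase of dolichol synthesis, gave 10.94, 10.70 and 10.84 at 85%, against 5.80 and 5.75 at 20%. SLD2, which is needed to start DNA replication, gave 10.80, 10.28 and 11.05 at 85%, against 5.80 and 5.66 at 20%. These changes of 5.08, 5.05 and 4.98 correspond to 33.8-fold, 33.2-fold and 31.6-fold. SPS1, a protein kinase of spore wall formation, gave 9.32, 8.73 and 9.52 at 85%, against 3.79 and 4.57 at 20%, a change of 5.01 from a level close to background.

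HSP30, a plasma membrane stress protein that restrains the proton pump Pma1p, reached 14.43, 14.41 and 14.47 at 85%, against 9.36 and 9.68 at 20% (change 4.92, SE 0.36, adjusted p = 1.21e-07). BTN2, which sorts misfolded proteins, gave 12.95, 12.90 and 12.96 at 85%, against 8.37 and 8.38 at 20%. SIS1, an essential Hsp40 co-chaperone, gave 13.11, 12.84 and 13.09 at 85%, against 9.06 and 8.95 at 20%. The replicates of BTN2 differed by less than 0.1 within each group. CUR1, the paralog of BTN2, rose as well (change 2.61, SE 0.21), as did TDA6, the gene beside CUR1 on the chromosome (3.99, SE 0.36). The other genes among the 15 largest rises were FRM2, a nitroreductase (4.54), ANS1 (4.88), YNL146C-A (4.96) and YDR042C (4.03). In FRM2 the second array at 85% stood at 9.38, below 10.73 and 10.74 in the others, and in ANS1 the second array stood at 9.18, above 8.18 and 8.12. NRG1, a repressor of glucose-repressed genes that neighbours YDR042C, rose by 2.08 (SE 0.16).

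The 15 largest falls were led by cell wall genes of the PAU and TIR families. PAU24 gave 7.20, 7.06 and 7.17 at 85%, against 11.79 and 12.08 at 20% (change -4.80, SE 0.20, adjusted p = 2.43e-09). The probe sets of PAU24, PAU7 and PAU2 can pair with RNA of other family members, so their values belong to the family rather than to a single gene. TIR1, a mannoprotein of cold and anaerobic cells whose probe set has no such mark, gave 10.22, 10.05 and 10.09 at 85%, against 13.77 and 13.83 at 20% (change -3.68, SE 0.12). TIR3, TIR4 and TIR2 fell by 4.34, 4.05 and 3.68, and PAU7, PAU2 and PAU17 by 4.53, 4.10 and 3.88.

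PHO84, the high-affinity phosphate transporter, gave 5.93, 5.61 and 6.07 at 85%, against 10.82 and 10.10 at 20% (change -4.59, SE 0.27). PHO3, an acid phosphatase that frees thiamine from its phosphates, gave 5.47, 5.64 and 5.96 at 85%, against 10.22 and 10.25 at 20% (change -4.54, SE 0.24). ALP1, an arginine permease, gave 5.77, 6.24 and 5.75 at 85%, against 10.51 and 10.23 at 20% (change -4.45, SE 0.41). All 3 transport and salvage genes thus fell by more than 20-fold. Groups that do not overlap were a condition for naming them. YJL213W (-4.46), the checkpoint gene HUG1 (-3.79), the thiamine precursor gene THI13 (-3.59, a probe set shared within its family) and FMP45 (-3.28) completed the list. Under the methods' t-test with Benjamini-Hochberg adjustment, 8 of these 30 genes were no longer called, among them MFA1 (adjusted p = 0.121), HSP30 (0.07), PHO84 (0.085) and TIR3 (0.124).

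**Figure D1:**
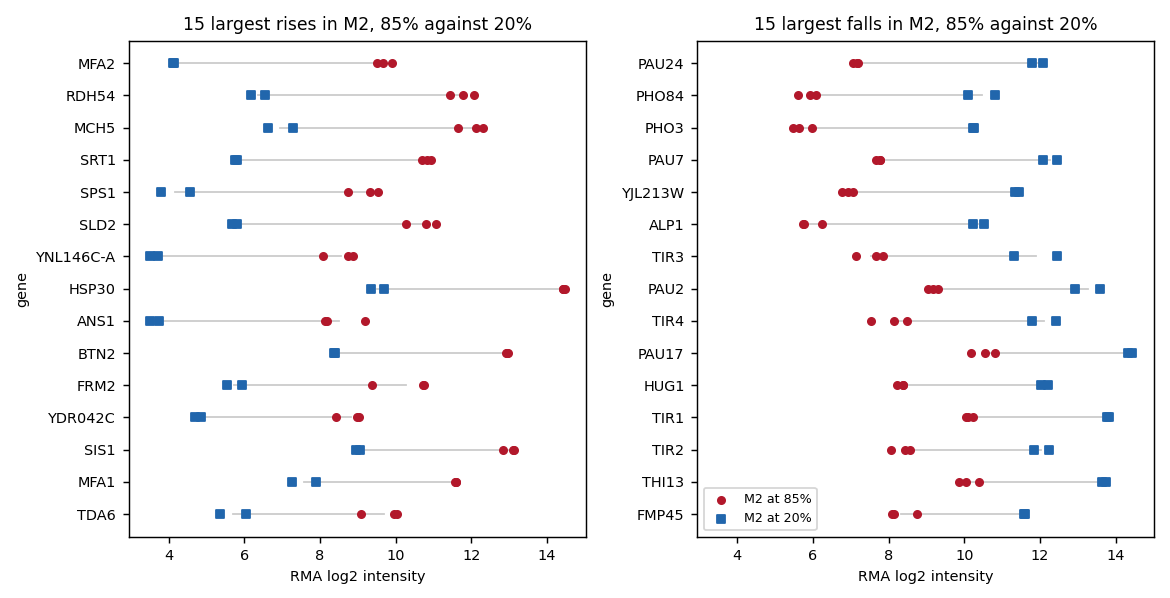
RMA log2 intensity (x axis) of the 15 genes with the largest rise (left) and the 15 with the largest fall (right) in M2, 1 point per array, with circles for the 3 arrays at 85% and squares for the 2 at 20%, and a line between the group means. The genes were chosen among those whose 85% and 20% arrays do not overlap, and the means differ by 46.9-fold for MFA2 and 9.71-fold for FMP45.

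Of 30 measured heat shock and chaperone genes 24 rose and 4 fell, with a median change of 1.23, where 33.2% of all probe sets rose and 32.0% fell. The arrays of the 2 stages did not overlap in any of the 30, which held for 75.8% of all probe sets. The Hsp110 gene SSE2 rose by 2.79, the Hsp40 gene YDJ1 by 2.72 and the Hsp70 genes SSA4, SSA1 and SSA2 by 2.38, 2.28 and 1.71. The Hsp90 gene HSP82 gave 12.01, 11.97 and 12.34 at 85%, against 10.21 and 10.07 at 20% (change 1.97, SE 0.18), and its constitutive partner HSC82 rose by 1.31. The disaggregase HSP104 rose by 1.03 and the small heat shock proteins HSP42 and HSP26 by 1.03 and 1.38. APJ1, a further Hsp40 gene, rose by 1.90. Among the 4 falls were those of the ribosome-associated Hsp70 genes SSB1 (-1.65, SE 0.14) and SSB2 (-1.21, SE 0.20), which fold nascent chains, and of the cell wall protein gene HSP150 (-0.83). HSP12, a membrane-stabilizing stress protein, stood at 13.96, 13.95 and 13.95 at 85%, against 13.85 and 13.66 at 20%, and was not called (adjusted p = 0.175). These values lie near the top of the intensity scale, where a change could be missed.

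Most of these chaperone genes had been lower at 20% than at 24 h. In the early step, which shares the 20% arrays with the late step, 19 of the 30 genes fell and 6 rose, where 26.5% of all probe sets fell and 26.5% rose (53.0% in either direction). At 24 h HSP30 had stood at 12.41 and 11.24, above its 20% arrays at 9.36 and 9.68 but below all arrays at 85%. SIS1 gave 11.05 and 10.64 at 24 h, against which its level at 85% was also higher. SSA2 stood at 12.45 and 12.62 at 24 h, fell early to 8.41 and 8.72, and with 10.21, 10.10 and 10.54 at 85% recovered only part of an early fall of 3.97.

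In glycolysis and ethanol production, with 23 genes, 11 fell and only PDC1 rose (0.82, SE 0.11), with a median of -0.34. Over all probe sets 32.0% fell and 33.2% rose. The enolase gene ENO2 gave 10.23, 10.61 and 10.43 at 85%, against 12.41 and 13.08 at 20% (change -2.33, SE 0.19), while ENO1 gave 13.72, 13.78 and 13.78 at 85%, against 13.89 and 13.93 at 20%, and was not called (adjusted p = 0.224). The glyceraldehyde-3-phosphate dehydrogenase gene TDH3 fell by 1.23 (SE 0.16), and TDH1 was level (0.00, SE 0.10). The pyruvate decarboxylase gene PDC5 fell by 2.06 (SE 0.20), in contrast to PDC1. The pyruvate kinase gene PYK2 fell by a like amount (-2.06, SE 0.19), and CDC19, the main isozyme, had a change of -0.23 (SE 0.10) that was not called. ADH1, the main alcohol dehydrogenase, had a change of 0.07 (SE 0.10) that was not called. With ENO1, it lies near the top of the intensity scale.

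Among 17 hexose transporters and sensors 1 rose, against 33.2% of all probe sets, and 5 fell, close to the 32.0% of all. HXT3, a low-affinity glucose transporter, rose by 0.39 (SE 0.14), and HXT17, HXT13, HXT14 and the high-affinity HXT2 fell by 2.10, 1.29, 0.55 and 0.47. The probe set of HXT17 can pair with related transporters. HXK2, the hexokinase of glucose repression, had a change of -0.35 (SE 0.17) that was not called (adjusted p = 0.0876), after an early fall of 1.95.

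Regulators of glucose repression rose in 10 of 23 cases and fell in 5, where 33.2% of all probe sets rose and 32.0% fell. TOS3, a kinase upstream of Snf1p, rose by 2.98 (SE 0.22), the repressor genes MIG2 and MIG1 by 2.85 and 2.62, and the transporter co-repressor genes MTH1 and STD1 by 1.44 and 1.32. SAK1, a further kinase upstream of Snf1p, fell by 0.86, MIG3 by 0.72 and GAL83, a subunit of the Snf1 complex, by 0.65. NSF1 gave 13.12, 12.90 and 13.19 at 85%, against 10.71 and 9.98 at 20%, a change of 2.73 (SE 0.50, adjusted p = 0.000327) or 6.62-fold. The call was lost under the methods' t-test when Benjamini-Hochberg adjustment was added (adjusted p = 0.148). The methods state no such adjustment, and used the test between strains. All 3 arrays at 85% stood above both at 20%, whose spread was wide. In nsf1∆ the probe set gave 3.63, 3.95 and 5.90 at 85%, against 3.52 and 4.28 at 20%, close to background except for the third array at 85%.

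Gluconeogenesis and the glyoxylate cycle, which allow growth on ethanol, had 7 of 14 genes higher and 2 lower. By comparison, 33.2% of all probe sets rose and 32.0% fell. PCK1, the phosphoenolpyruvate carboxykinase, gave 11.64, 11.72 and 11.73 at 85%, against 8.26 and 7.99 at 20% (change 3.57, SE 0.20, 11.9-fold). The isocitrate lyase gene ICL1 rose by 1.37, the malate synthase gene MLS1 by 1.23 and FBP1 by 0.65. CIT2, the peroxisomal citrate synthase, fell by 1.32 and the lactate permease gene JEN1 by 1.30. Of 39 genes of peroxisomes and fatty acid oxidation 13 rose, close to the share of all probe sets, and 8 fell, with PEX22 (2.05) and the import receptor PEX5 (1.57) at the top and the fatty acid transporter PXA1 (-1.51) and DCI1 (-1.50) at the bottom.

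The TCA cycle, with 17 genes, had 3 rises and 7 falls, where 33.2% of all probe sets rose and 32.0% fell. IDH1 gave 13.49, 13.35 and 13.54 at 85%, against 11.16 and 11.21 at 20% (change 2.28, SE 0.16), and IDH2, the second subunit, rose by 2.36 (SE 0.18). KGD2, of the 2-oxoglutarate dehydrogenase, rose by only 0.37 (SE 0.15, adjusted p = 0.0449), a call that was lost whichever array of M2 was left out. The fumarase gene FUM1 fell by 1.51 and the succinyl-CoA ligase genes LSC1 and LSC2 by 1.29 and 1.01. YIA6, which carries NAD into mitochondria, rose by 1.37 (SE 0.15).

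Of 23 genes of the respiratory chain 8 rose, close to the 33.2% of all probe sets, and 5 fell, against 32.0%. In the early step 21 had risen and none had fallen, where 26.5% of all probe sets moved each way. The small subunits QCR6 and COX13 rose by 1.01 and 0.84 and QCR10 by 0.59, and the NADH dehydrogenases NDI1 and NDE2 fell by 0.94 and 0.89 and the core subunit COR1 by 0.57. In the ATP synthase the small subunits ATP18, ATP19 and ATP15 rose by 1.01, 0.89 and 0.86, and ATP2, ATP1 and ATP5, subunits of the catalytic head and its stalk, fell by 1.05, 0.74 and 0.69. In total 4 of its 17 genes rose and 5 fell, neither share above that of all probe sets. ATP23, a peptidase needed for its assembly, rose by 1.25 (SE 0.13). Mitochondrial ribosomal proteins had 34 of 65 genes higher and 13 lower, with MRPL33 (1.49), MRP10 (1.43) and MRPL27 (1.35) ahead and RSM25 (-1.11) last.

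Across genes the late change was weakly and inversely related to gene length, which touches the small subunits just named. All 5462 genes had an annotated length, introns included and without UTRs, and Pearson's r of log2 length with the late change was -0.17 over genes, given as a description. Among the 1100 shortest genes, of up to 660 bases, 44.0% rose and 19.8% fell, and among the 1093 longest, of 2109 bases or more, 24.0% rose and 40.1% fell. In the early step r was 0.01. The 3′ minus 5′ signal of the control probe sets for ACT1 was 0.90, 0.86 and 1.11 at 85%, against 0.83 and 0.70 at 20%, and for SPT15 1.03, 0.88 and 0.79 at 85%, against 1.34 and 1.41 at 20%, so these measures of RNA integrity moved in opposite directions. Of all 8 such controls 4 were higher at 85% without overlap (ACT1, TDH1, URA3 and WBP1), 2 were lower (SPT15 and SRB4) and 2 overlapped. Their part in the late changes was not tested.

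**Figure D2:**
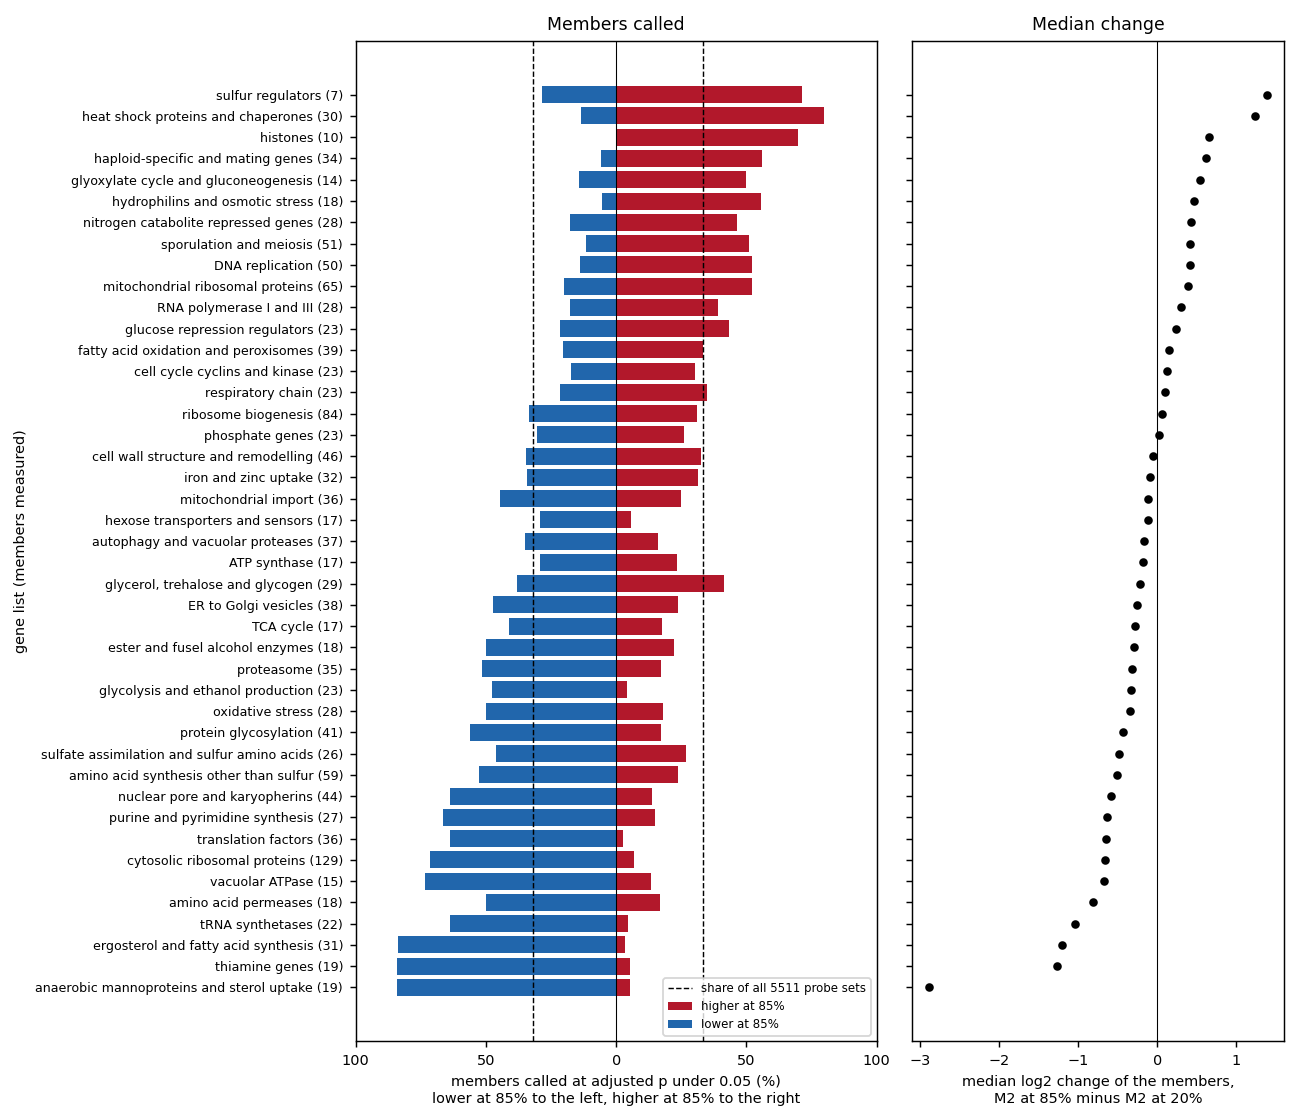
Gene lists ordered by their median change in the M2 late step, with the percentage of measured members called higher (red, to the right) or lower at 85% (blue, to the left) in the left panel, dashed lines at the shares of all 5511 probe sets (33.2% and 32.0%), and the median log2 change, 85% minus 20%, in the right panel. Sulfur regulators (median 1.40) and chaperones (1.23) stand at the top and anaerobic mannoproteins (-2.88) at the bottom.

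Of 29 genes of glycerol, trehalose and glycogen 12 rose and 11 fell, where 33.2% of all probe sets rose and 32.0% fell. STL1, which takes up glycerol, gave 9.34, 9.93 and 9.76 at 85%, against 6.45 and 5.95 at 20% (change 3.48, SE 0.26). The glycerol-producing enzymes GPP1, GPP2 and GPD1 rose by 2.04, 1.98 and 1.70, while GUT2, which oxidises glycerol 3-phosphate, fell by 1.27. The glycogen synthase genes GSY1 and GSY2 fell by 1.84 and 1.32 and the glycogen phosphorylase gene GPH1 by 1.72, but GIP2, a regulatory subunit of the phosphatase that acts on glycogen synthase, rose by 2.43. The trehalose synthase gene TPS1 and the trehalase gene NTH1 rose by 0.78 and 0.79.

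Among 18 hydrophilin and osmotic stress genes 10 rose and 1 fell, where 33.2% of all probe sets rose and 32.0% fell. The hydrophilin GRE1 gave 12.87, 13.41 and 13.11 at 85%, against 10.34 and 9.93 at 20% (change 2.99, SE 0.33), RPH1 rose by 1.73 and the salt tolerance gene HAL1 by 1.14 (SE 0.14), and the aldose reductase gene GRE3 fell by 1.30. SIP18, a further hydrophilin, gave 13.83, 14.01 and 13.90 at 85%, against 13.79 and 13.80 at 20%, without a call and also near the top of the scale, after an early rise of 5.01. Antioxidant genes went the other way, with 14 of 28 lower and 5 higher. The transcription factor genes SKN7 and YAP1 rose by 1.42 and 0.98 and the peroxidase gene GPX1 by 1.08. The glutathione synthesis genes GSH2 and GSH1 fell by 1.75 and 0.70, the peroxiredoxin gene TSA2 by 1.71 and GPX2 by 1.51.

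Of 19 anaerobic mannoprotein and sterol uptake genes 16 fell and 1 rose, with a median of -2.88, the lowest of the 43 lists described. By comparison, 32.0% of all probe sets fell and 33.2% rose. The exception was SUT1, a transcription factor of sterol uptake, which gave 11.65, 11.83 and 11.93 at 85%, against 10.28 and 9.33 at 20% (change 2.00, SE 0.24). Probe sets of 5 of the 19 genes can pair with relatives. Of 31 genes of ergosterol and fatty acid synthesis 26 fell and 1 rose, with a median of -1.21. The fatty acid elongase gene ELO3 gave 6.02, 5.88 and 5.64 at 85%, against 8.43 and 8.93 at 20% (change -2.83, SE 0.24), and had already fallen by 2.56 in the early step. ERG24, HMG1, the rate-limiting reductase, and ERG4 fell by 2.77, 2.67 and 2.55. ECM22, an activator of sterol genes, rose by 0.47 (SE 0.17). ANB1, the hypoxic form of eIF5A, gave 9.53, 9.44 and 9.70 at 85%, against 12.55 and 12.67 at 20% (change -3.05, SE 0.17).

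Thiamine genes fell in 16 of 19 cases, with a median of -1.26, and the only rise was RPI1, a transcriptional regulator (1.56, SE 0.19). Over all probe sets 32.0% fell and 33.2% rose. Besides PHO3 and THI13, SNZ3, of vitamin B6 synthesis, fell by 2.86 and the thiazole synthase gene THI4 by 0.79. Of the list's probe sets 3, SNZ3 and THI13 among them, can pair with relatives. Phosphate genes showed no common direction, with 6 of 23 higher and 7 lower, neither share above that of all probe sets. PHM8, a phosphatase of nucleotides and lysophosphatidic acid, gave 12.98, 12.83 and 13.23 at 85%, against 9.19 and 9.92 at 20% (change 3.46, SE 0.21). PHO80, the cyclin that holds the pathway back, rose by 1.84 and the acid phosphatase gene PHO11 by 0.87, while PHO84 and the low-affinity transporters PHO87 and PHO91 fell by 4.59, 1.87 and 1.77. PHO84 had been low at 24 h, at 5.95 and 6.31, and ALP1 likewise at 6.64 and 6.85, so that both peaked at 20%.

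Regulators of sulfur metabolism rose while its enzymes were divided. Of 7 regulators 5 rose and 2 fell, where 33.2% of all probe sets rose and 32.0% fell. MET32, which recruits the activator Met4p to DNA, gave 9.13, 8.98 and 9.02 at 85%, against 6.74 and 6.37 at 20% (change 2.49, SE 0.17). MET31, MET28 and MET4 itself rose by 1.97, 1.71 and 1.40, and MET30, the F-box protein that holds Met4p in check, by 0.36 (SE 0.14). CBF1 fell by 0.77 and MET18, which serves iron-sulfur protein assembly, by 1.34.

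Of 26 genes of sulfate assimilation and sulfur amino acids 7 rose and 12 fell, where 33.2% of all probe sets rose and 32.0% fell. The methionine permease gene MUP3 rose by 2.43 (SE 0.30), the cystathionine lyase gene STR3 by 2.00, the PAPS reductase gene MET16 by 1.58 and the sulfate permease gene SUL2 by 1.21. The APS kinase gene MET14 and the sulfite reductase gene MET5 rose by 0.66 each (SE 0.20 and 0.22), after early changes of -3.13 and -3.47. MET6, the methionine synthase, gave 10.53, 10.24 and 11.11 at 85%, against 13.55 and 13.56 at 20% (change -2.93, SE 0.23). The S-methylmethionine permease gene MMP1 fell by 2.40 (SE 0.28), MET17 by 1.57, SUL1 by 0.79 (SE 0.30) and the siroheme gene MET8 by 0.65. Single arrays decided these last calls, since SUL1 changed by -0.52 without the first array at 20% (adjusted p = 0.263) and MET8 by -0.35 without the second (0.193). The call of MET5 was lost without either array at 20%, that of MET14 without the second. MET22 had a change of 0.02 (SE 0.18) and was not called.

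Other amino acid synthesis fell in 31 of 59 genes and rose in 14, where 32.0% of all probe sets fell and 33.2% rose. LYS9 and LYS2 of lysine synthesis fell by 2.41 and 1.87, and the branched-chain gene ILV3 (-2.06) and HOM2 of homoserine synthesis (-1.53, SE 0.11) fell as well. HOM3, the aspartokinase that starts the same branch as HOM2, gave 11.35, 10.57 and 11.50 at 85%, against 7.62 and 8.54 at 20%, and rose by 3.06 (SE 0.36). The glutamine synthetase gene GLN1 rose by 2.23 and HIS4 by 1.81. In the early step 45 of the 59 genes had fallen, where 26.5% of all probe sets fell.

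Genes under nitrogen catabolite repression, which are released when good nitrogen sources run out, rose in 13 of 28 cases and fell in 5. By comparison, 33.2% of all probe sets rose and 32.0% fell. MEP2, the high-affinity ammonium permease, gave 12.39, 11.60 and 12.61 at 85%, against 9.07 and 9.58 at 20% (change 2.87, SE 0.28), having stood at 12.33 and 12.18 at 24 h. MEP2 lies next to MFA2 on the chromosome. GAT1, an activator of the regulon, rose by 2.20, DAL3 by 2.08 and the repressor gene DAL80 by 2.05. The catabolic genes UGA1, PUT2 and PUT1 fell by 1.69, 1.20 and 0.77. Of 18 amino acid permeases 9 fell, with ALP1, AGP2 (-1.37) and HIP1 (-1.11) ahead, and 3 rose, namely BAP3 (2.17), the peptide transporter PTR2 (1.39) and TAT1 (1.15).

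Enzymes of aroma compounds were lower in 9 of 18 cases and higher in 4, where 32.0% of all probe sets fell and 33.2% rose. ATF2, an alcohol acetyltransferase, gave 4.52, 4.75 and 5.02 at 85%, against 7.49 and 8.29 at 20% (change -3.13, SE 0.23), and ATF1, which makes most acetate esters, fell by 0.94. The aminotransferase genes ARO8 and BAT1, which start fusel alcohol synthesis, fell by 2.17 and 1.74. The esterase gene IAH1 rose by 0.86, the ethyl ester synthase gene EEB1 by 0.63 and the aldehyde dehydrogenase gene ALD3 by 1.30.

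Genes of protein synthesis fell further. Of 129 cytosolic ribosomal protein genes 92 fell and 9 rose, with a median of -0.66. Over all probe sets 32.0% fell and 33.2% rose. RPL12A fell by 2.54, RPS24B by 2.20 and RPS20 by 1.98, and RPS9A rose by 2.34 (SE 0.18) and RPS27A by 1.15. RPS9A gave 10.30, 10.17 and 10.46 at 85%, 7.80 and 8.14 at 20% and 10.49 and 10.60 at 24 h. RPL18B and RPL11B each have a pair of probe sets called in opposite directions, and many of these genes have a near-identical copy, so single members are uncertain. Translation factors fell in 23 of 36 cases, with TEF4 at -2.65, and only SUI1 rose (0.75). Of 22 tRNA synthetase genes 14 fell, led by SES1 (-2.79), GRS1 (-2.32) and CRS1 (-2.29), and MES1 alone rose (1.22, SE 0.24).

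Of 84 ribosome assembly factors 26 rose and 28 fell, shares close to the 33.2% and 32.0% of all probe sets, with RRP43 of the exosome (2.04) and NOP53 (1.99) at one end and RIX1 (-2.21) and NOP56 (-1.73) at the other. Among subunits and factors of RNA polymerases I and III 11 of 28 rose and 5 fell, beside the same 33.2% and 32.0%. RRN11 (2.08) and RPC19 (1.86) were among the rises. RPA190, the largest subunit of polymerase I, gave 7.91, 7.95 and 8.22 at 85%, against 10.13 and 10.02 at 20% (change -2.04, SE 0.14).

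Genes of DNA replication fell more often than they rose in the early step, and rose more often than they fell in the late step. Of 50 genes 26 rose and 7 fell, where 33.2% of all probe sets rose and 32.0% fell. The early step had 3 rises and 27 falls, where 26.5% of all probe sets moved each way. Both steps share the 20% arrays, so their changes are not independent, here and in the histone genes below. POL30, the sliding clamp PCNA, gave 11.22, 10.85 and 11.01 at 85%, against 8.91 and 9.20 at 20%, and had stood at 10.93 and 11.11 at 24 h. PSF1, of the GINS complex, rose by 1.93 after an early fall of 1.40. The ribonucleotide reductase gene RNR2, the clamp loader gene RFC1 and the DNA ligase gene CDC9 fell by 1.41, 0.94 and 0.85. Of 10 histone genes 7 rose and none fell. HTB2, which encodes H2B, gave 10.05, 9.97 and 10.36 at 85%, against 7.21 and 7.53 at 20%, still below its 11.78 and 11.68 at 24 h. HTA2, its H2A partner, rose by 1.36 (SE 0.17).

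Of 23 genes of cyclins and their kinase 7 rose and 4 fell, neither share above that of all probe sets (33.2% and 32.0%). CLN1, a cyclin of the G1 phase, gave 6.81, 6.20 and 6.81 at 85%, against 4.09 and 4.35 at 20% (change 2.39, SE 0.22), and CKS1 and CLB3 rose by 1.62 and 1.07. CLN3, the cyclin that links growth to the start of the cycle, gave 8.12, 7.91 and 9.16 at 85%, against 10.34 and 10.51 at 20% (change -2.03, SE 0.29), and the kinase gene CDC28 fell by 1.41 and CLB5 by 0.76.

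**Figure D3:**
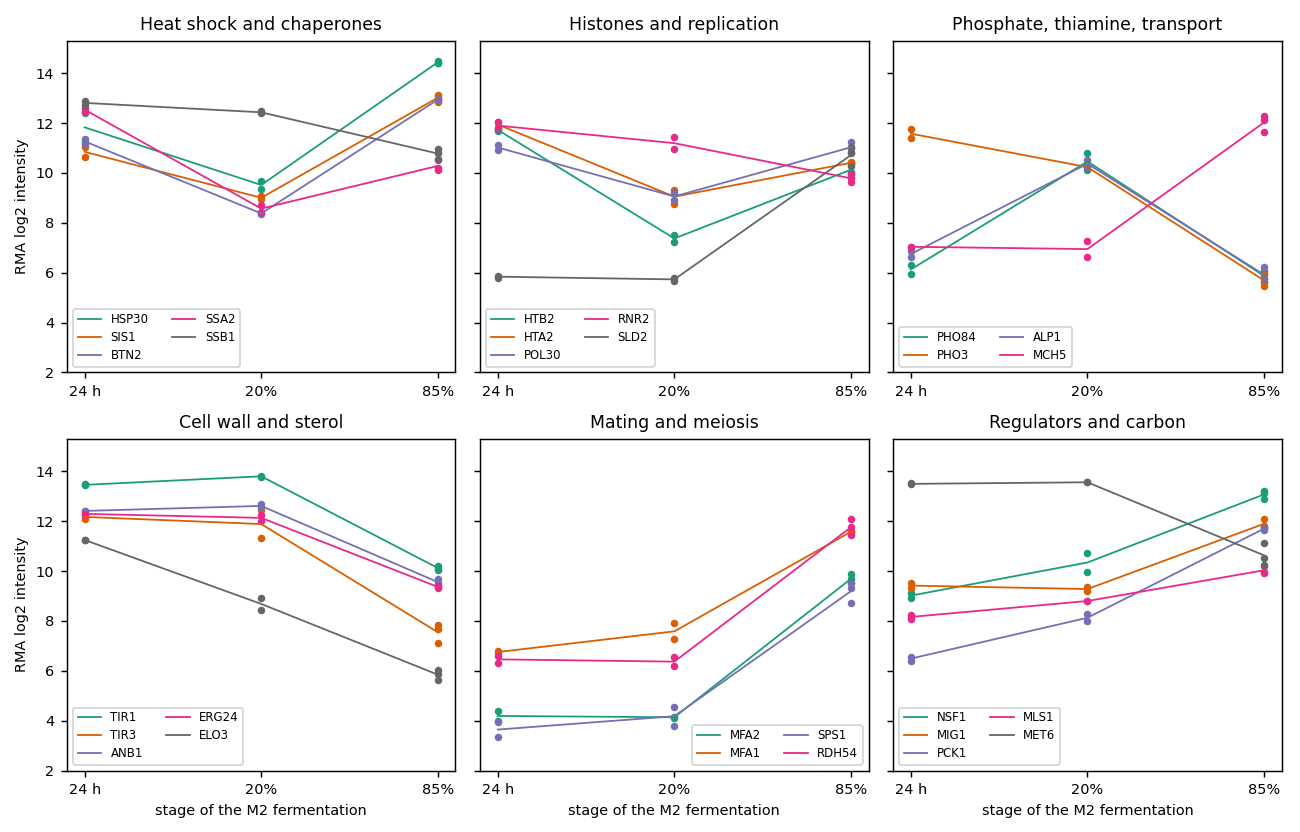
RMA log2 intensity (y axis) over the stages of the M2 fermentation (x axis) for selected genes, 1 point per array and a line through the stage means. HSP30, SIS1, BTN2, HTB2 and POL30 are lowest at 20%, PHO84 and ALP1 are highest there, and MFA2, RDH54, SPS1 and SLD2 leave their early level only at 85%.

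A MATa/α diploid normally shuts off pheromone, receptor and other haploid-specific genes through the a1/α2 repressor, and enters meiosis only when nitrogen and fermentable sugar run out. Of 34 haploid-specific and mating genes 19 rose and 2 fell, where 33.2% of all probe sets rose and 32.0% fell. GPA1, a subunit of the pheromone G protein, rose by 2.46 and the scaffold gene STE5 by 2.56. STE18, a further subunit, gave 6.32, 5.98 and 6.23 at 85%, against 3.49 in both arrays at 20%. As the level at 20% is under background, its rise is a bound of at least 6.28-fold, taken against the background level of 3.53. The agglutinin gene SAG1 and the kinase gene STE20 fell by 1.42 and 1.12.

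Over the 18 markers of haploid cells 14 rose and none fell, where 33.2% of all probe sets rose and 32.0% fell. NEJ1 is among the 14, but both its group means lie at or under background, so its change could not be measured well. Their summed linear intensity was 6880, 6425 and 7008 at 85%, against 1700 and 1495 at 20%, and 17 or 18 of them lay over background at 85%, against 16 at 20%, where STE18 and NEJ1 were under it. MFA1 alone gave 3079, 3016 and 3063 of that sum at 85%, which is 43.7% to 46.9% of it, against 238 and 154 at 20%. Without MFA1 the sums were 3801, 3409 and 3945 at 85%, against 1462 and 1341 at 20%. As levels of different genes are not comparable, these are sums and shares of signal, not of RNA. The α-pheromone gene MF(ALPHA)1 rose by 2.07, RME1, a repressor of meiosis, by 1.54 and the HO endonuclease gene by 1.53. The receptor gene STE2 rose by 0.50, and STE3 (0.56), STE6 (-0.38), FAR1 (-0.27) and STE4 (0.00) were not called. The markers of a cells and of α cells thus did not move as a block. RNA was taken from whole cultures, so more cells of a type and more RNA per cell cannot be told apart.

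Sporulation genes rose in 26 of 51 cases and fell in 6, where 33.2% of all probe sets rose and 32.0% fell. MND1, of meiotic recombination, gave 9.81, 9.63 and 9.97 at 85%, against 6.37 and 6.57 at 20% (change 3.34, SE 0.21), SPO19 rose by 2.66 and SPO11, which cuts DNA in meiosis, by 2.20. The master regulators did not lead. IME1 gave 5.98, 6.16 and 5.95 at 85%, against 5.65 and 5.67 at 20% (change 0.37, adjusted p = 0.0584), IME2 rose by 0.91 and NDT80, which drives the middle phase of meiosis, fell by 0.73 (SE 0.18). Of 16 markers of sporulating cells 11 rose and 1 fell, and all 16 lay over background at both stages. Their summed linear intensity was 5727, 4409 and 4997 at 85%, against 2111 and 2046 at 20%. SPS2, the gene beside SPS1, rose by 2.12, but its mean of 2.96 at 20% is under background, so the size of its change is uncertain. ACT1, used by any yeast cell, had a change of -0.23 that was not called.

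**Figure D4:**
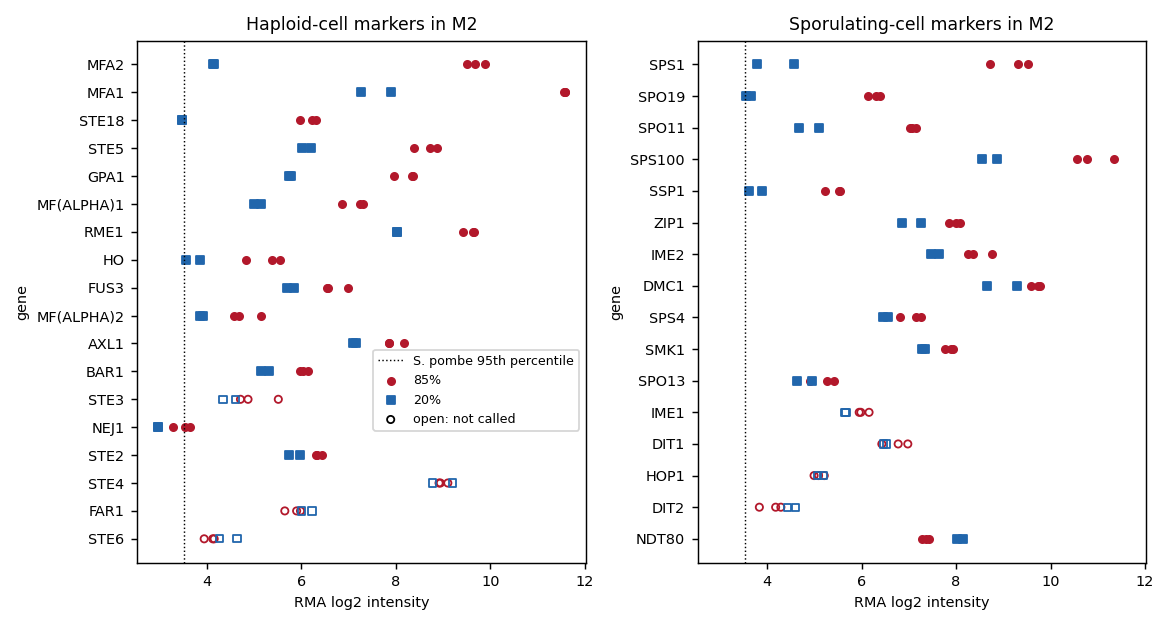
RMA log2 intensity (x axis) of 18 markers of haploid cells (left) and 16 of sporulating cells (right) in M2, 1 point per array, with circles for 85% and squares for 20%. Filled points belong to called genes, and the dotted line is the 95th percentile of the S. pombe probe sets (3.53). MFA2 and SPS1 show the widest gaps, and STE4, HOP1 and DIT2 none that was called.

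The secretory route and the vacuole went down in most of their called members, where 33.2% of all probe sets rose and 32.0% fell. Of 15 genes of the vacuolar ATPase 11 fell, with VMA2 at -1.81 and VPH1 at -1.69, and 2 rose, STV1 (0.39) and VMA10 (0.38). Protein glycosylation had 23 of 41 genes lower and 7 higher, led by DPM1, the dolichol phosphate mannose synthase (-2.45), and PMT4 (-2.15), although SRT1 of dolichol synthesis was among the largest rises. Vesicles between ER and Golgi had 18 of 38 lower and 9 higher. Nuclear pore and karyopherin genes had 28 of 44 lower and 6 higher. NUP188 and NUP192, large pore scaffolds, fell by 2.45 and 2.21, and the median length of this list, 2857 bases, was the highest of all lists. Proteasome genes had 18 of 35 lower and 6 higher, while RPN4, their activator, rose by 0.68 (SE 0.12). Among autophagy and vacuolar protease genes the aminopeptidases APE1 (-2.71) and APE3 (-1.67) fell and the mitophagy receptor ATG32 rose (1.41). Of these 37 genes 6 were higher and 13 lower, the latter close to the share of all probe sets.

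Whether the late step differed without NSF1 was asked by setting it against the same step in nsf1∆, which shares no array with it. The steps were much alike. In nsf1∆ 31.6% of probe sets rose and 34.0% fell (65.6% in either direction), and 3015 probe sets were called in the same direction in both strains, which is 84.0% of the calls in M2 and 83.4% of those in nsf1∆, with 8 in opposite directions. Pearson's r of the changes was 0.94 across probe sets, which are not independent replicates. All 30 genes of the largest changes in M2 were called the same way in nsf1∆. Among these 30 the lowest adjusted p of the difference between the steps was 0.106, which belonged to PHO84, with a change of -4.59 in M2 and -3.06 in nsf1∆.

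The difference of the steps was called for 11 probe sets (0.200%), 7 with a more positive change in M2 (0.127%) and 4 with a more negative one (0.0726%). In limma 765 of the 5511 probe sets had an unadjusted p under 0.05. With 2 arrays of each strain at 20%, smaller differences can have been missed. HTB2 rose by 2.76 in M2 and by 1.12 in nsf1∆, a difference of 1.64 (SE 0.25, adjusted p = 0.025). Its levels in nsf1∆ were 9.26, 9.58 and 9.84 at 85%, against 8.35 and 8.54 at 20%, so that the strains lay farther apart at 20% than at 85%. HTA2 gave a difference of 1.09 that was not called (adjusted p = 0.0833). ADH5, an alcohol dehydrogenase, gave 9.22, 9.12 and 9.29 at 85%, against 10.39 and 10.28 at 20% in M2, and 8.71, 8.61 and 8.42 at 85%, against 10.87 and 11.06 at 20% in nsf1∆ (difference 1.25, SE 0.19, adjusted p = 0.0239).

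YPR015C, a zinc finger protein, rose by 2.15 in M2 and changed by 0.49 in nsf1∆ (adjusted p = 0.0321 for the difference). CIN2, of microtubule assembly, rose by 1.41 in M2 and changed by 0.26 in nsf1∆ (adjusted p = 0.0239). FMS1, a polyamine oxidase, UBA3, an activating enzyme for Rub1p, and URA10, of pyrimidine synthesis, fell in nsf1∆ by 1.09, 0.70 and 1.66, and changed in M2 by 0.37, 0.76 and -0.57. The coatomer gene RET2, the ribosome assembly gene NSA1 and the pheromone arrest gene FAR1 rose in nsf1∆ by 1.34, 1.09 and 0.95, with changes of 0.01, 0.04 and -0.27 in M2. Leaving out single arrays moved the count of 11 between 0 and 22, with 0 left without the first array of M2 at 85%, the first of M2 at 20% or either array of nsf1∆ at 20%. With the replicate block none of the 11 stayed called, and 1 other probe set was called.

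For the genes of sulfur metabolism no difference of the late steps was called. MMP1 came nearest, with a change of -2.40 in M2 and -0.54 in nsf1∆ (difference -1.85, SE 0.40, adjusted p = 0.0833). SUL1 changed by -0.79 in M2 and -0.14 in nsf1∆ (adjusted p of the difference = 0.509) and MET32 by 2.49 in M2 and 3.21 in nsf1∆ (0.204). Over the 26 genes of sulfate assimilation and sulfur amino acids the median difference was -0.45, against 0.05 over all probe sets. The paper set the strains against each other at 85%, and a gap already present at 20% drops out of the difference used here. Mitochondrial ribosomal proteins had 34 rises and 13 falls in M2, against 20 rises and 21 falls in nsf1∆. Over all probe sets 33.2% rose and 32.0% fell in M2, and 31.6% rose and 34.0% fell in nsf1∆. No mitochondrial ribosomal protein of the list had a called difference. EEB1 rose by 0.63 in M2 and had a change of -0.30 in nsf1∆ (difference 0.93, adjusted p = 0.0997).

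**Figure D5:**
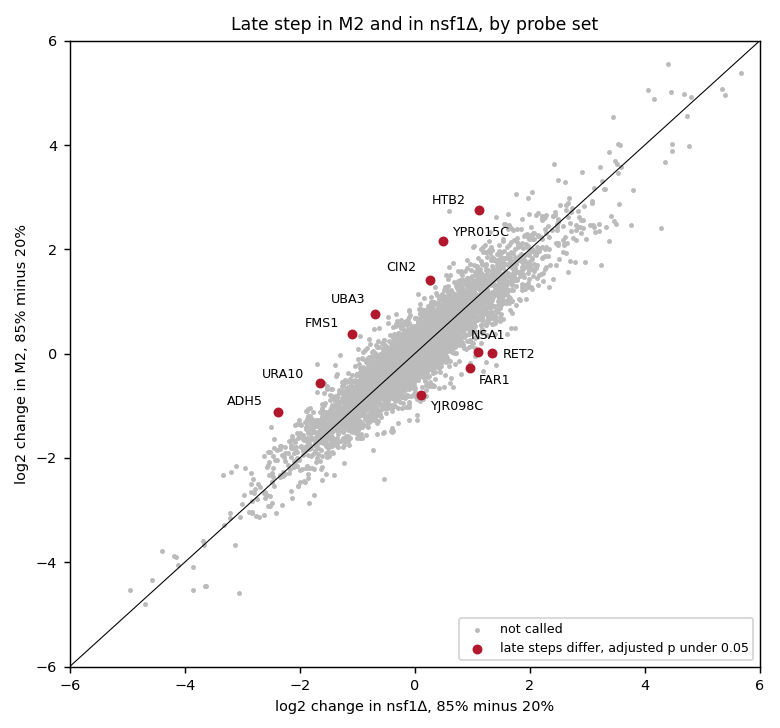
Log2 change from 20% to 85% in M2 (y axis) against the same change in nsf1∆ (x axis), 1 point per probe set, with the diagonal of equal change. The 11 probe sets whose changes differed are named, with HTB2, at 2.76 in M2 and 1.12 in nsf1∆, and RET2, at 0.01 and 1.34, on opposite sides of the diagonal.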

How the data were processed

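RNA was hybridised to Affymetrix Yeast Genome 2.0 arrays, and the authors deposited log2 intensities from RMA (background correction, quantile normalization, summary per probe set). The RMA version is not given in the sources used here. Samples were grouped by strain and stage in their labels, and the table had 0 columns of other samples. Of 5511 probe sets used, 5498 were paired with a gene by the platform annotation and 13 by the array identifiers of the paper's gene tables. Probe sets for S. pombe, controls, several genes or none did not enter. A gene with several probe sets is named by the one without a cross-hybridisation mark, then by the highest mean.

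All 14 arrays entered one limma fit of 6 group means (limma 3.58.1, R 4.3.3), whose residual degrees of freedom were 8 and prior ones 5.14. P-values were adjusted by Benjamini and Hochberg's method within a contrast, over 5511 probe sets, and called under 0.05. The fit was tested on simulated data. Lists, markers, lengths and figures were made with Python 3.11.15, using pandas 2.3.3, matplotlib 3.10.9 and numpy 2.4.6. Gene names, neighbours and lengths came from RefSeq's annotation of assembly R64.

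The text names the 15 largest rises and 15 largest falls whose groups do not overlap and whose higher mean is over background, up to 3 called members each way of each of the 43 lists, all members of lists of 8 or fewer, 10 genes of the comparison with nsf1∆ and the genes the paper names. Other genes were chosen after their values were seen. The members and lists were chosen with earlier results of these data known, and the length comparison was added after the values were seen. Counts describe a list, and no set was tested.

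Alternatives were fits of the M2 arrays alone, the replicate number as a block, filters on dim probe sets, all probe sets, other normalizations, an intensity trend, array weights, the methods' t-test, stricter thresholds and leaving out each array. A search for promoter motifs was not run, as no promoter sequence was at hand.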

Additional observations from a re-analysis of the deposited data

Results flagged for a closer look

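Each of the following probe sets had a late change that differed between the strains by the test of the difference itself, M2 minus nsf1∆, in limma. The differences on the log2 scale were 1.66 for YPR015C (adjusted p = 0.0321), 1.64 for HTB2 (0.025), 1.46 for FMS1 (0.0401), 1.46 for UBA3 (0.0401), 1.25 for ADH5 (0.0239), 1.15 for CIN2 (0.0239) and 1.09 for URA10 (0.0338). They were -1.33 for RET2 (0.0285), -1.23 for FAR1 (0.0338), -1.05 for NSA1 (0.0239) and -0.90 for YJR098C (0.0345), which fell by 0.80 in M2 and changed by 0.11 in nsf1∆. In RET2, FAR1 and NSA1 the change in M2 was not called and the rise in nsf1∆ was. Among the 10 histone genes, HTB2 alone had a called difference. The 20% arrays, of which each strain has 2, enter every one of these differences, and the median SD of a probe set at 20% was 0.13 in M2 and 0.08 in nsf1∆.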

How the results depend on the processing

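The count of probe sets higher at 85% was 1827 and that of lower ones 1761. Leaving out 1 array of M2 gave 1577 to 1761 higher and 1528 to 1724 lower. The methods' t-test with unequal variances gave 490 and 644 after Benjamini-Hochberg adjustment, and the requirement of a 2-fold change 765 and 689. All other settings stayed within 1.5 times, and 0 calls turned their direction under any. Of the 30 largest changes 8 lost their call, all of them under the t-test (SPS1, HSP30, MFA1, PAU24, PHO84, PAU7, TIR3 and PAU2). Among the genes the paper names, MET22, never called, had a change of 0.02 that turned negative without M2 replicate 1 at 85% (-0.06) or M2 replicate 1 at 20% (-0.22), in a range of -0.22 to 0.27 over the arrays left out, and MET5, SUL1 and KGD2 lost their calls with the replicate block (adjusted p = 0.0888, 0.0503 and 0.0705). Under the t-test with Benjamini-Hochberg adjustment, which the methods do not state, further calls were lost. These were NSF1 (0.148), MET4 (0.102), MET5 (0.209), MET8 (0.338), MET14 (0.122), MET16 (0.155), MET32 (0.0988) and MMP1 (0.0656). SUL1 (0.238), SUL2 (0.116), KGD2 (0.106), YIA6 (0.0629), ATP19 (0.0777), GSH1 (0.135), HAL1 (0.19) and APJ1 (0.0541) lost theirs as well. Leaving out single arrays ended the calls of KGD2 (all 5 arrays of M2), MET5 (4 of them), SUL1 (3), and, without the second at 20%, MET8 and MET14. Over lists and settings, the median stayed within the spread between replicates 715 times and moved beyond it 59 times.

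The 11 differences between the late steps were the least stable result. With the replicate block none of the 11 stayed called and the count was 1. It was 24 after quantile normalization again and 90 with array weights, both with all 11 included, and 0 at an adjusted p under 0.01. Leaving out 1 array gave 0 to 22, with 6 or 7 without the third or second array of M2 at 85%, 6 without the first of nsf1∆ at 85% and 22 without the second of M2 at 20%, of which 6 were among the 11. The t-test was not run on this difference, which has 4 groups.

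The block gave 3394 calls in the late step, of which 3278 were among the 3588 calls without it. Its changes equal those without the third array of M2 at 85%, as for MET5 (0.48 in both), since replicate 3 has no array at 20%. Deviations of same-numbered arrays at 85% and 20% correlated at -0.18 and -0.12 in M2 and -0.03 and -0.10 in nsf1∆, which gave no sign of pairing. With 2 arrays at 20% the deviations mirror each other, so whether numbers mark shared flasks was not settled. For 84 probe sets with both means at background, a change could not be measured well.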

Other observations

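Further groups had values that were not described above. In iron and zinc uptake 10 of 32 genes rose and 11 fell, close to the shares of all probe sets, with the siderophore wall protein FIT1 at 1.45 (7.69, 7.88 and 8.07 at 85%, against 6.51 and 6.35 at 20%) and the zinc transporter gene ZRT2 at -1.47. Purine and pyrimidine synthesis had 18 of 27 genes lower and 4 higher, where 32.0% of all probe sets fell and 33.2% rose. The IMP dehydrogenase gene IMD3 gave 8.72, 8.82 and 8.71 at 85%, against 10.77 and 10.68 at 20%, and URA6 rose by 1.12. Cell wall structure was balanced, with 15 of 46 genes higher and 16 lower, and mitochondrial import had 9 of 36 higher and 16 lower, with the channel gene TOM40 at -1.48.

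The relation of the late change to gene length was also present in nsf1∆, with r = -0.14 across genes and medians of 0.18 among the 1100 shortest genes and -0.19 among the 1093 longest. In M2 these medians were 0.26 and -0.20.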
